A study of Homo sapiens with 4 samples.

Results

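MUC16, VTCN1 and PROM1 high cells of the breast cancer line HCC1143 made up 309 of the 3086 cells with 20000 or more unique molecular identifiers (UMIs, counts of single captured RNA molecules). They were chosen by their readout: cells of all 4 libraries were pooled, and the 10% with the highest summed UMIs of the 3 genes per UMI of the cell were taken. HCC1143 is an established human line from a triple-negative carcinoma of the breast, a tumor type without estrogen receptor, progesterone receptor or HER2 amplification. The libraries came from cells kept in 1 nM paclitaxel for 24 h, in DMSO for 24 h, in paclitaxel at the same dose for 72 h and in DMSO for 72 h, with 1 library per group. The taxane paclitaxel stabilises microtubules, and DMSO is its solvent. All 4 groups were grown in plastic wells as a single cell type, with no host tissue and no other cell type in culture. The 4 tables held 3194 barcodes, of which 108 had fewer than 20000 UMIs and were not ranked. With 1 library per group, treatments and times were not tested against each other, and a treatment cannot be told apart from the library that carries it.

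The 3 genes encode proteins of the cell surface. MUC16 is a very large transmembrane mucin whose shed part is the tumor marker CA125. VTCN1, also called B7-H4, is a member of the B7 family that restrains T cells and is found on secretory epithelia and many breast and gynecologic tumors. PROM1, also called CD133, is a membrane glycoprotein of cell protrusions that is used as a marker of stem and progenitor cells. In normal breast, luminal cells line the ducts and secrete, basal cells surround them, and luminal progenitors give rise to mature luminal cells. On GRCh38 in GENCODE release 29, MUC16 lies on chromosome 19 from 8848844 to 8981342, VTCN1 on chromosome 1 from 117143587 to 117210960, and PROM1 on chromosome 4 from 15963076 to 16084378, all 3 on the minus strand.

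The summed level of the 3 genes ran as a continuum through the point where members begin. The 5 lowest members had 146.7 to 147.8 summed UMIs per 1000000 UMIs of the cell, and the 5 cells just outside had 145.0 to 146.2. Members had a median of 203.8 and a maximum of 547.9 on this scale, against a median of 21.8 in the other cells. In raw numbers a member held between 4 and 39 UMIs of the 3 genes, with a median of 13. Of the 309 members, 213 held UMIs of all 3 genes, 93 of a pair of them and 3 of 1 gene. MUC16 gave 54.2% of the summed UMIs of members, VTCN1 30.7% and PROM1 15.1%. These values describe the choice itself and carry no test.

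Members were spread unevenly over the libraries. They were 90 of 751 cells in the paclitaxel 24 h library (11.98%, exact Clopper-Pearson 95% interval 9.75 to 14.5) and 10 of 1081 cells in the DMSO 24 h library (0.925%, 0.444 to 1.69). They were 37 of 485 cells in the paclitaxel 72 h library (7.63%, 5.43 to 10.36) and 172 of 769 cells in the DMSO 72 h library (22.4%, 19.5 to 25.5). The share was thus higher in the paclitaxel than in the DMSO library at 24 h and lower in the paclitaxel than in the DMSO library at 72 h. The DMSO 72 h library held 55.7% of all members and the DMSO 24 h library 3.24%. The intervals cover counting error only and no replicate library checks these differences. When every cell was first thinned to 20000 UMIs, the DMSO 24 h share was 2.50%, more than 1.5 times the unthinned value. The order of the 4 libraries was the same. Thinned sums are small whole numbers, so cells tie at the cutoff. Ties were taken in library order with DMSO 24 h first, so the thinned shares can depend on that order. Thinning kept 71 of 90, 9 of 10, 25 of 37 and 111 of 172 members in the 4 libraries as listed above.

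**Figure D1:**
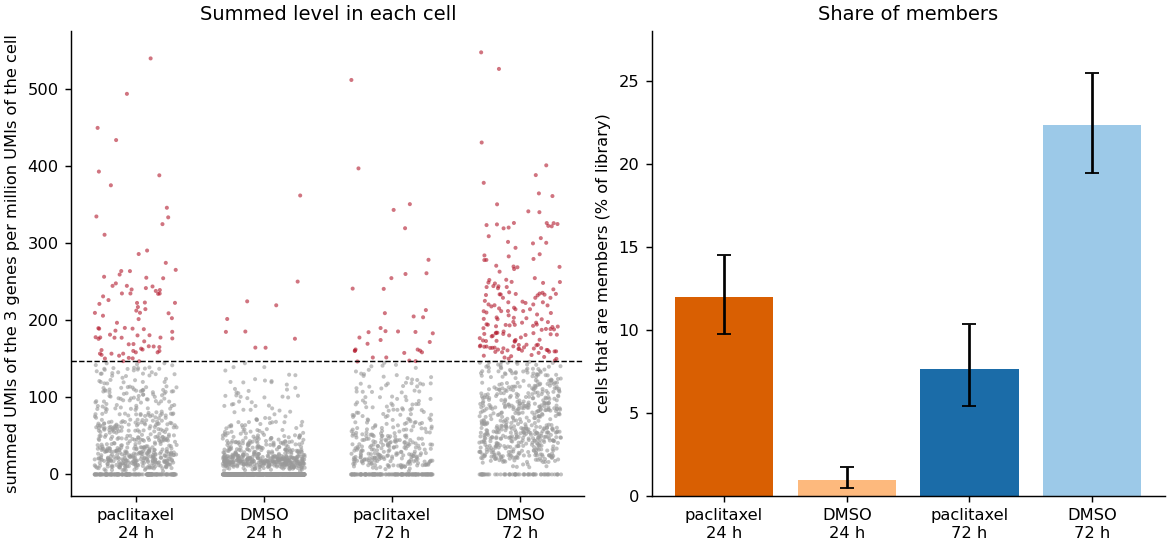
Left, summed UMIs of MUC16, VTCN1 and PROM1 per 1000000 UMIs of each cell (1 point per cell, members in red, dashed line at the lowest member). Right, share of each library's cells that are members, with exact 95% binomial intervals, from 0.925% in the DMSO 24 h library to 22.4% in the DMSO 72 h library.

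The levels of the 3 genes in whole libraries followed the same order. Members were chosen by these same UMIs, so this likeness is not a separate observation. MUC16 summed to 29.96 counts per 1000000 UMIs (CPM) in the paclitaxel 24 h library and 9.60 CPM in the DMSO 24 h library, and to 27.4 CPM in the paclitaxel 72 h library and 58.3 CPM in the DMSO 72 h library. VTCN1 levels were 18.4 CPM in the paclitaxel 24 h and 3.84 CPM in the DMSO 24 h library, and 16.7 CPM in the paclitaxel 72 h and 31.6 CPM in the DMSO 72 h library. PROM1 was at 10.7 and 8.16 CPM in the paclitaxel 24 h and 72 h libraries, against 3.50 and 12.6 CPM in the DMSO 24 h and 72 h libraries. For each of the 3 genes the lowest library was DMSO 24 h and the highest was DMSO 72 h. The counting intervals of the paclitaxel 24 h and 72 h libraries overlapped for MUC16 and VTCN1 and did not for PROM1. After thinning, 38.3%, 14.5%, 30.7% and 59.4% of cells held a MUC16 UMI in the paclitaxel 24 h, DMSO 24 h, paclitaxel 72 h and DMSO 72 h libraries (65.4%, 34.1%, 57.3% and 83.9% before thinning). No cell type that should lack MUC16 was present to set a background for these shares.

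Whether the 3 genes go together was described by leaving each out of the choice in turn. Cells chosen by VTCN1 and PROM1 had 74.6, 46.8, 55.4 and 96.4 CPM of MUC16 in the paclitaxel 24 h, DMSO 24 h, paclitaxel 72 h and DMSO 72 h libraries, against 23.7, 9.14, 25.2 and 49.5 CPM in the other cells. Cells chosen by MUC16 and PROM1 had 49.2, 18.4, 50.04 and 50.07 CPM of VTCN1 in those libraries, against 15.4, 3.70, 14.3 and 25.4 CPM in the other cells. Cells chosen by MUC16 and VTCN1 had 30.2, 32.4, 19.0 and 23.0 CPM of PROM1, against 8.46, 3.20, 7.45 and 9.32 CPM in the other cells. The left-out gene was thus higher in the chosen cells of every library, by 1.95-fold to 5.13-fold for MUC16, 1.97-fold to 4.97-fold for VTCN1 and 2.47-fold to 10.1-fold for PROM1. The largest ratio of each of MUC16, VTCN1 and PROM1 was in the DMSO 24 h library, where the chosen cells held as few as 41, 12 and 24 UMIs of the left-out gene.

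**Figure D2:**
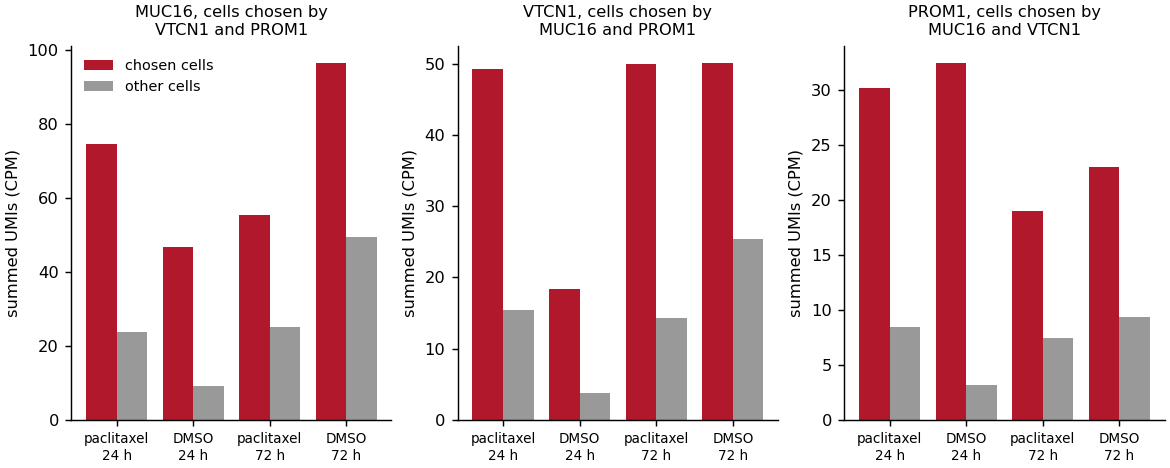
Level (CPM of summed UMIs) of MUC16, VTCN1 and PROM1 in cells chosen by the other pair of genes (red) and in the remaining cells (gray) of each library. Each of the 3 genes was higher in the cells chosen without it in all 4 libraries, with ratios of 1.95-fold to 10.1-fold.

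Members also lay near each other in the other genes. In 30 principal components of 2000 variable genes without the 3 genes, 36.5% of the 15 nearest cells of a paclitaxel 24 h member were members, against 9.49% for the other cells of that library. The corresponding shares were 8.67% against 0.498% in the DMSO 24 h library, 23.1% against 7.62% in the paclitaxel 72 h library and 38.3% against 16.8% in the DMSO 72 h library. Most neighbors of members were therefore non-members in each library. Across the 2588 genes that averaged 50 CPM or more, the log2 ratio of members over other cells in 1 library correlated with that in another at a Pearson r of 0.55 to 0.72 and a Spearman rho of 0.47 to 0.64. These correlations are across genes, which are not independent replicates, and all libraries share the rule that chose the members.

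Depth, MT- share and called phase differed between members and other cells by library. Median UMIs per cell were 58260, 56890, 57054 and 59742 in members of the paclitaxel 24 h, DMSO 24 h, paclitaxel 72 h and DMSO 72 h libraries, against 63776, 60045, 61414 and 54864 in the other cells. The median share of UMIs from mitochondrially encoded (MT-) genes was higher in members of all 4 libraries, at 8.85%, 9.70%, 9.80% and 7.47%, against 6.94%, 7.77%, 6.46% and 6.85% in the other cells. Cells called G2/M from fixed gene lists made up 25.6% of members and 47.4% of the other cells in the paclitaxel 24 h library, 40.0% and 60.1% in the DMSO 24 h library, and 13.5% and 27.2% in the paclitaxel 72 h library. In the DMSO 72 h library the order was the other way, with 35.5% of members and 30.2% of the other cells called G2/M. Cells called G1 made up 56.7%, 81.1% and 50.6% of members of the paclitaxel 24 h, paclitaxel 72 h and DMSO 72 h libraries, against 38.1%, 68.3% and 59.5% of the other cells. In the DMSO 24 h library 3 of 10 members and 17.7% of the other cells were called G1. Scrublet, which marks likely doublets, marked 3 members, all in the DMSO 72 h library. Barcodes shared between libraries numbered 7, none of them a member in either library.

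**Figure D3:**
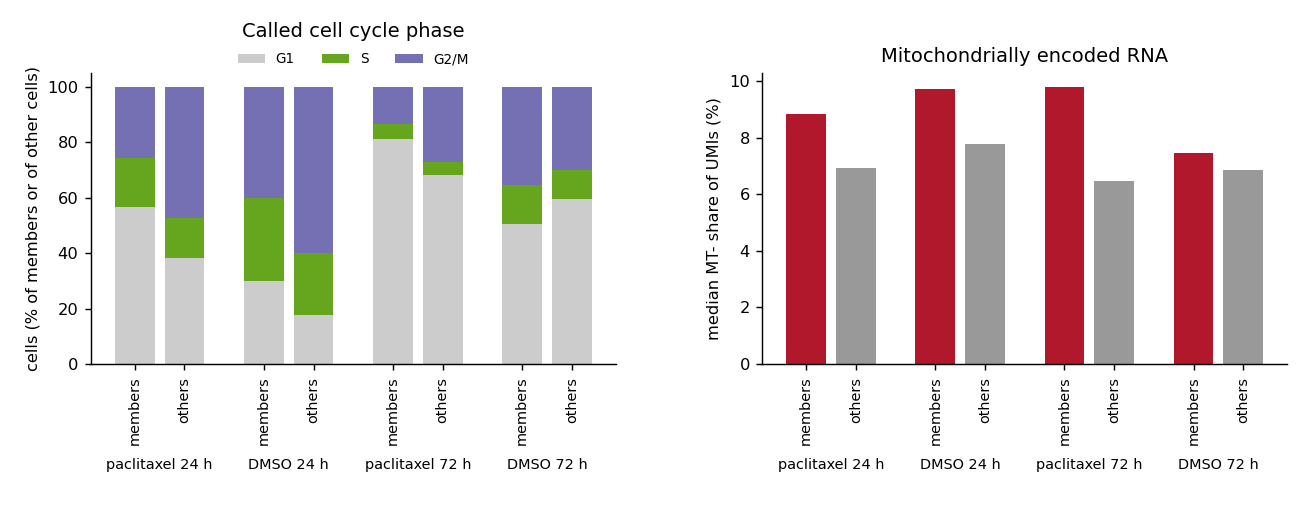
Left, share of members and of other cells called G1, S or G2/M in each library after thinning to 20000 UMIs. Right, median share of UMIs from mitochondrially encoded genes, which was 7.47% to 9.80% in members and 6.46% to 7.77% in the other cells.

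To ask which other genes differ in members, UMIs were summed over members and over the other cells of each library and compared with edgeR's quasi-likelihood test with library as a block. A gene was called when its Benjamini-Hochberg adjusted p over all 8208 tested genes was under 0.05, and MUC16, VTCN1 and PROM1 were left out. Of the tested genes 698 were higher in members (8.5%) and 699 were lower (8.52%). Of these, 666 of the higher and 624 of the lower genes had the same sign in all 4 libraries. Most differences were small: 177 genes were at least 1.5-fold higher and 105 at least 1.5-fold lower, and 34 and 17 passed 2-fold. The median log2 fold change of all tested genes was -0.01. Scaled to total UMIs alone, 741 genes were called higher and 491 lower, a split of 60.1% to 39.9%. The libraries differ in treatment and time, nothing says that they are replicate cultures, and the p-values measure the spread of the within-library difference over these 4 libraries. Without the library as a block 0 genes were called in either direction (949 at an unadjusted p under 0.05), and DESeq2's Wald test with the block called 501 higher and 609 lower. The DMSO 24 h library entered with 10 members and 607825 UMIs, and without it 549 genes were called higher and 501 lower. Without the paclitaxel 24 h library the counts were 313 and 271, and without the paclitaxel 72 h library 442 and 422.

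The genes with the highest fold changes included genes of secreted proteins, surface proteins and keratins. RARRES1, a membrane protein gene induced by retinoic acid that serves as a luminal progenitor marker, was at 155, 80.6, 124 and 81.7 CPM in members of the paclitaxel 24 h, DMSO 24 h, paclitaxel 72 h and DMSO 72 h libraries, against 54.4, 8.89, 52.1 and 49.2 CPM in the other cells. All 4 member values lay above all 4 values of the other cells (log2 fold change 1.38 ± 0.20 SE, adjusted p = 0.000172). C3, the central complement component, was at 125, 118, 150 and 95.2 CPM in members, against 52.0, 19.4, 65.0 and 45.7 CPM in the other cells of those libraries, again without overlap (1.37 ± 0.15, adjusted p = 1.75e-05). KRT81, a hair type keratin gene with near-identical paralogs whose reads may be shared among them, was at 550, 610, 823 and 324 CPM in members, against 198, 134, 439 and 153 CPM in the other cells (1.36 ± 0.15, adjusted p = 1.44e-05). The ranges of KRT81 overlapped across libraries, since the other cells of the paclitaxel 72 h library exceeded members of the DMSO 72 h library, but members were higher within each library.

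CEACAM1, a cell adhesion molecule of epithelia and immune cells, was at 72.4, 140, 119 and 100.3 CPM in members, against 30.3, 19.3, 59.5 and 51.8 CPM in the other cells of the paclitaxel 24 h, DMSO 24 h, paclitaxel 72 h and DMSO 72 h libraries. CCL28, a chemokine made by mucosal and mammary epithelium, was at 175, 62.5, 139 and 128 CPM in members, against 53.1, 16.2, 58.1 and 86.5 CPM in the other cells. CEACAM1 had a log2 fold change of 1.34 ± 0.18 without overlap between the groups, and CCL28 one of 1.24 ± 0.16 with overlap across libraries. The type I keratin gene KRT23 was at 1.29, the potassium channel subunit gene KCNG1 at 1.26, PRR15L at 1.26, TMEM132A at 1.18, the microtubule-associated protein gene MAP2 at 1.17 and the membrane phospholipase gene LIPH at 1.11. All of these were higher in 4 of 4 libraries, with adjusted p-values of 0.00011 or less. RP11-402P6.11, a clone-based name without a locus of that name in GENCODE release 29, had the highest fold change (1.45 ± 0.18), with 120, 421, 541 and 153 CPM in members and 80.4, 74.0, 155 and 69.7 CPM in the other cells. Log2 ratios were largest in the DMSO 24 h library for 11 of these 12 genes (all but MAP2), where 10 members were summed.

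The genes with the lowest fold changes included metallothioneins, insulin-like growth factor binding proteins and mesenchymal genes. IGFBP5, a secreted binding protein of insulin-like growth factors, was at 4.76, 6.49 and 5.52 CPM in members of the paclitaxel 24 h, paclitaxel 72 h and DMSO 72 h groups, against 28.3, 38.7 and 15.3 CPM in the other cells. In the DMSO 24 h library its count was 0 in members, which allows up to 4.94 CPM, against 10.42 CPM in the other cells (log2 fold change -2.12 ± 0.19, adjusted p = 3.32e-06). All 4 member values of IGFBP5 lay below those of the other cells. When the top 10% was taken within each library instead of over the pool, the fold change was -0.82 and was no longer called (adjusted p = 0.0706). IGFBP7, a related secreted protein of the extracellular matrix, was at 392, 44.4, 278 and 146 CPM in members, against 611, 296, 607 and 360 CPM in the other cells of the 4 libraries (-1.27 ± 0.18). It was lower within each library, with overlap between libraries.

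Metallothioneins are small proteins that bind zinc and copper. MT1X was at 176, 188, 190 and 196 CPM in members of the paclitaxel 24 h, DMSO 24 h, paclitaxel 72 h and DMSO 72 h libraries, against 516, 469, 387 and 381 CPM in the other cells (-1.24 ± 0.11, adjusted p = 3.32e-06). MT2A was at 894, 1023, 969 and 923 CPM in members, against 2411, 3115, 1536 and 1448 CPM in the other cells (-1.11 ± 0.14). Neither gene's values overlapped between members and other cells, and the member values of both differed little between libraries. MT1G was at 6.46, 4.94, 3.65 and 11.8 CPM in members, against 27.1, 33.8, 20.3 and 20.3 CPM in the other cells (-1.54 ± 0.20). MT1 genes are near-identical copies, so their separate values are uncertain. In the family as a whole, listed after its values were seen, 5 of 6 tested metallothionein genes were lower (background 8.52%) and 0 were higher.

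VIM, the mesenchymal intermediate filament vimentin, was at 1168, 510, 915 and 1310 CPM in members, against 1890, 1291, 1966 and 2033 CPM in the other cells of the 4 libraries (-0.96 ± 0.13, adjusted p = 8.22e-05). The calcium-binding protein gene CALB1 was at -1.20, the serine protease gene PRSS23 at -1.10, the actin-binding protein gene TAGLN at -1.02, and the receptor phosphatase gene PTPRR at -0.99. The pseudogene SFTA1P was at -1.47 and C5orf46 at -1.03. All of these were lower in members of 4 of 4 libraries. TAGLN missed the threshold when the top 10% was taken within each library (-0.52, adjusted p = 0.0539).

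**Figure D4:**
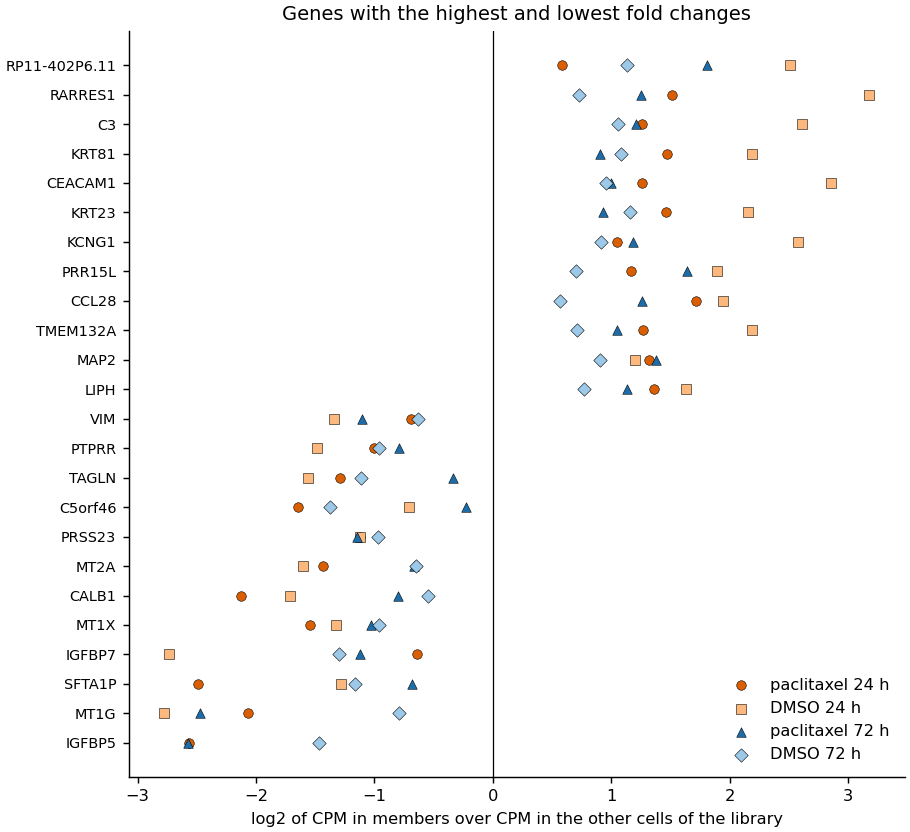
Log2 ratio of CPM in members over CPM in the other cells, by library, for the 24 genes with the highest and lowest fold changes. Every drawn point of the upper 12 genes lies right of 0 and every drawn point of the lower 12 lies left of it; IGFBP5 has no DMSO 24 h point because its count in those members was 0.

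Luminal genes were split. Of 12 tested luminal markers, 6 were higher in members (background 8.5%), 1 was lower (background 8.52%) and 5 were not called, with a median log2 fold change of 0.26. SLPI, a secreted protease inhibitor, was at 236, 211, 393 and 172 CPM in members, against 124, 58.6, 257 and 139 CPM in the other cells of the paclitaxel 24 h, DMSO 24 h, paclitaxel 72 h and DMSO 72 h libraries (0.82 ± 0.16, adjusted p = 0.00166). MUC1, a transmembrane mucin of luminal surfaces, was at 133, 100.4, 157 and 134 CPM in members, against 73.2, 45.6, 84.6 and 91.3 CPM in the other cells (0.79 ± 0.10, adjusted p = 6.36e-05). The members' MUC1 values lay above all values of the other cells. The tight junction gene CLDN4 (0.72), the surface glycoprotein gene CD24 (0.71), the luminal transcription factor gene GATA3 (0.46) and the epithelial transcription factor gene ELF3 (0.42) were the other higher ones. The exact interval of GATA3 included a ratio of 1 in the paclitaxel 24 h and paclitaxel 72 h libraries. Its largest log2 ratio, 1.51 in the DMSO 24 h library, rested on 14 UMIs in members.

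The keratins that define the luminal layer were not among them. KRT8 had a log2 fold change of -0.07 ± 0.10 (adjusted p = 0.662) and KRT19 one of 0.02 ± 0.11 (adjusted p = 0.918). KRT18, the partner of KRT8, was at 680, 456, 708 and 387 CPM in members, against 792, 565, 947 and 481 CPM in the other cells of the 4 libraries (-0.35 ± 0.10, adjusted p = 0.025). This call was lost without the DMSO 24 h (adjusted p = 0.069), paclitaxel 72 h (0.101) or DMSO 72 h library (0.0886). The epithelial marker EPCAM was at -0.16 ± 0.11 (adjusted p = 0.308). Some luminal markers were thus higher in members and the luminal keratins were not, so the cells are called here by the 3 genes that chose them.

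Luminal progenitor markers were mostly higher. Of 7 tested markers 6 were higher (background 8.5%) and 0 were lower, with a median log2 fold change of 0.62. Besides RARRES1, GABRP, a subunit of the GABA type A receptor, was at 118, 100.4, 163 and 113 CPM in members of the paclitaxel 24 h, DMSO 24 h, paclitaxel 72 h and DMSO 72 h libraries, against 56.9, 23.1, 60.1 and 86.3 CPM in the other cells (1.09 ± 0.16, adjusted p = 0.000213). KLK5, a secreted serine protease, was at 192, 171, 358 and 114 CPM in members, against 88.4, 90.5, 111 and 81.0 CPM in the other cells (1.03 ± 0.14, adjusted p = 8.74e-05). Members exceeded the other cells in every library for both genes. The phosphate transporter gene SLC34A2 (0.62), the retinaldehyde dehydrogenase gene ALDH1A3 (0.50) and the transcription factor gene SOX9 (0.40) were also higher, while MMP7 was at 0.01 and was not called. SLC34A2 was lower in members of the DMSO 72 h library, at 16.8 against 19.3 CPM in the other cells. KIT, the receptor tyrosine kinase that defines luminal progenitors, averaged 4.77 CPM and was under the minimum for the test. KIT was at 3.06, 0, 2.84 and 3.83 CPM in members, against 7.10, 3.78, 2.35 and 6.997 CPM in the other cells of the 4 libraries, and its interval lay below a ratio of 1 in the paclitaxel 24 h and DMSO 72 h libraries.

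The few genes of secretion that could be tested were mostly higher. Of 19 listed secretory and alveolar markers, 9 were in all 4 tables. The milk protein genes LALBA, CSN2 and CSN3 and the secretory genes LTF and PIGR were each missing from at least 1 table, so they were not tested. Of 6 tested secretory and alveolar markers 4 were higher and 1 was lower (background 8.5% higher and 8.52% lower), with a median of 0.70. MFGE8, a protein of milk fat globules, was at 84.5, 168, 143 and 172 CPM in members, against 53.2, 39.8, 78.9 and 72.8 CPM in the other cells of the paclitaxel 24 h, DMSO 24 h, paclitaxel 72 h and DMSO 72 h libraries (1.11 ± 0.14, adjusted p = 6.34e-05). The acute phase genes SAA2 (0.93) and SAA1 (0.67), near-identical copies of each other, and WFDC2 (0.74), a secreted protease inhibitor family member also called HE4, were the other higher ones. CLU, which encodes the secreted chaperone clusterin, was lower in members of 4 of 4 libraries (-1.05 ± 0.17, adjusted p = 0.00051). The iron-binding lipocalin gene LCN2 was not called (-0.32 ± 0.12, adjusted p = 0.0705). Of 10 listed mucin genes other than MUC16, 2 were in all 4 tables and could be tested. Both were higher: MUC1, already counted among the luminal markers, and the gel-forming MUC5B. MUC5B was at 36.7, 41.1, 36.1 and 38.5 CPM in members, against 16.1, 12.6, 18.6 and 21.1 CPM in the other cells, with no overlap (1.06 ± 0.12, adjusted p = 2.65e-05).

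Junction genes were higher in part. Of 16 tested genes of epithelial junctions 10 were higher in members and 0 were lower (background 8.5% higher and 8.52% lower), with a median of 0.41, and all 16 fold changes were positive. The tight junction genes CLDN1 (0.91 ± 0.17), CGN (0.89 ± 0.13) and OCLN (0.59 ± 0.11) led, and CDH1, the epithelial cadherin, was at 0.56. CLDN1 was at 143, 153, 178 and 102 CPM in members, against 77.7, 32.8, 105 and 79.2 CPM in the other cells of the 4 libraries. It was called by edgeR (adjusted p = 0.00162) and missed the threshold with DESeq2's Wald test (adjusted p = 0.0551). Among cells with an MT- share of 5% to 10% it was at 0.28 and was not called (adjusted p = 0.176). Squamous and cornified genes, against the same background, had 4 of 8 higher and 0 lower. These were the desmosomal cadherin gene DSG3 (1.03), the kallikrein-related proteases KLK10 (1.08) and KLK6 (1.00), and S100P (0.48). S100P was higher in members of 3 of the 4 libraries only (edgeR adjusted p = 0.0381).

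Of 17 tested basal markers 3 were higher and 2 were lower (background 8.5% higher and 8.52% lower), with a median of -0.02. The keratin gene KRT15 was at 280, 201, 210 and 276 CPM in members, against 130, 63.1, 108 and 228 CPM in the other cells of the paclitaxel 24 h, DMSO 24 h, paclitaxel 72 h and DMSO 72 h libraries (0.92 ± 0.15, adjusted p = 0.000423). The placental cadherin gene CDH3 was higher (0.65 ± 0.10), and the laminin chain gene LAMA3 (-0.93 ± 0.15) and the caveolin gene CAV1 (-0.50) were lower. KRT14 was called higher (0.33 ± 0.11, adjusted p = 0.0425) and lost the call without the paclitaxel 24 h (adjusted p = 0.179), DMSO 24 h (0.165) or DMSO 72 h library (0.0869). KRT5, the basal partner of KRT14, was not called (-0.12 ± 0.10, adjusted p = 0.391).

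Mesenchymal markers had 0 of 6 higher and 4 lower (background 8.5% higher and 8.52% lower), with a median of -0.48. Beside VIM these were CDH2, the neural cadherin (-0.91 ± 0.12), the receptor tyrosine kinase gene AXL (-0.58 ± 0.12) and the galectin gene LGALS1 (-0.37). CDH2 was at 13.9, 18.1, 17.4 and 8.64 CPM in members, against 26.2, 39.6, 29.01 and 16.2 CPM in the other cells of the 4 libraries. The hyaluronan receptor gene CD44, often used as a stem cell marker, was not called (-0.11 ± 0.10, adjusted p = 0.486). In the list of stem cell and Notch genes 3 of 13 were higher and 3 were lower, against the same background. The transcription factor gene SOX4 was higher (0.64 ± 0.11), and the inhibitors of differentiation ID3 (-0.93 ± 0.11) and ID1 (-0.79 ± 0.11) were lower. Of 4 tested genes of the B7 family and other checkpoints, to which VTCN1 belongs, 0 were higher and CD47 was lower (-0.35), against the same background. The CD47 call was lost without the paclitaxel 24 h library (adjusted p = 0.0861) and among cells with an MT- share of 5% to 10% (adjusted p = 0.0828).

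Most markers of cells other than epithelium were missing from a table or under the minimum of 10 CPM. Of 8 fibroblast markers, 1 was listed in all 4 tables and 0 passed the minimum of 10 CPM. The immune list had 1 of 10 and the adipocyte list 0 of 5 in all tables. Endothelial markers had 1 tested gene, EGFL7, a secreted protein gene at a mean of 55.02 CPM, which was not called (log2 fold change 0.22). The summed level of the endothelial list was 76.6, 105, 70.5 and 61.8 CPM in members of the paclitaxel 24 h, DMSO 24 h, paclitaxel 72 h and DMSO 72 h libraries, against 62.8, 64.6, 63.3 and 53.9 CPM in the other cells. The defining markers PECAM1 and CDH5 were each missing from at least 1 of the 4 tables. The summed level of the immune list was 3.74 to 9.73 CPM in members and 5.78 to 20.1 CPM in the other cells over the 4 libraries.

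**Figure D5:**
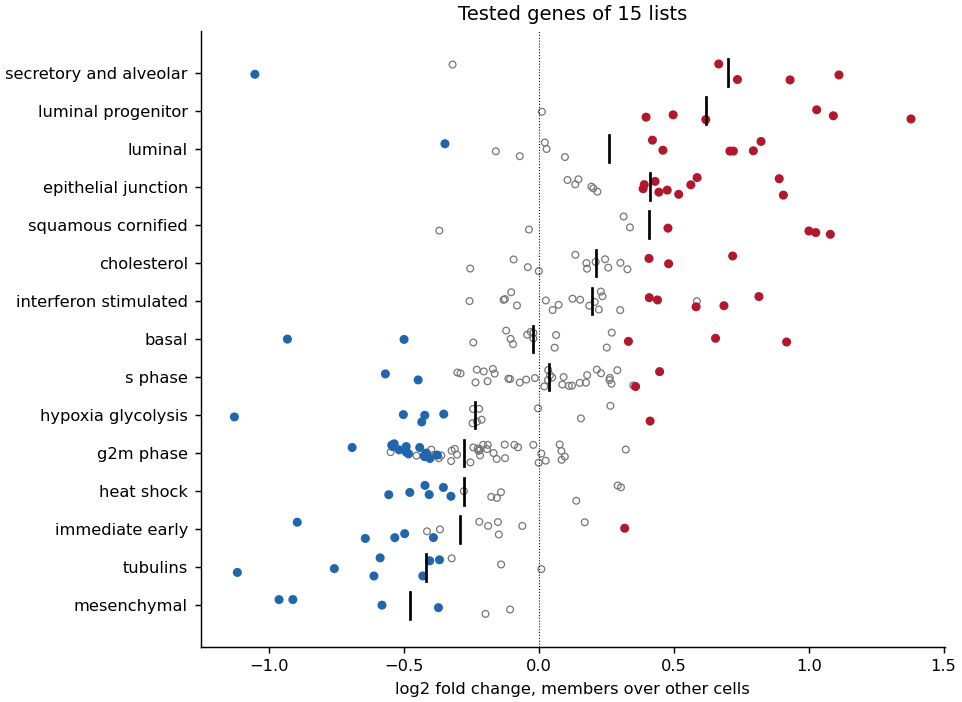
Log2 fold change, members over other cells, of every tested gene of 15 lists; red and blue points passed the test, open circles did not, and bars mark the median of a list. Medians of the lists drawn run from 0.70 for secretory and alveolar markers to -0.48 for mesenchymal markers.

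Cell cycle genes were lower in part, beside the phase shares given above. Of 50 tested G2/M genes 13 were lower in members (background 8.52%) and 0 were higher, with a median of -0.28. Summed over the list, members were at 2754, 4980, 2672 and 2967 CPM in the paclitaxel 24 h, DMSO 24 h, paclitaxel 72 h and DMSO 72 h libraries. The other cells were at 4466, 5230, 2989 and 2729 CPM, so members had the higher sum in the DMSO 72 h library. The G2/M gene CDC20 was at 29.9, 42.8, 39.3 and 29.4 CPM in members, against 72.0, 69.4, 58.7 and 33.1 CPM in the other cells of the paclitaxel 24 h, DMSO 24 h, paclitaxel 72 h and DMSO 72 h libraries (-0.69 ± 0.14, adjusted p = 0.00214). It was not called among cells called G1 (-0.25, adjusted p = 0.377) or among cells with an MT- share of 5% to 10% (-0.27, adjusted p = 0.202). MKI67, the proliferation antigen Ki-67, was called lower (-0.38 ± 0.12, adjusted p = 0.0334), was higher in members of the DMSO 72 h library (73.1 against 69.0 CPM in the other cells) and lost the call without the paclitaxel 24 h (adjusted p = 0.244), DMSO 24 h (0.0705) or paclitaxel 72 h library (0.111), and with scaling to total UMIs (0.0586). TOP2A, a topoisomerase of dividing cells, was not called (-0.09 ± 0.12, adjusted p = 0.634). Of 36 tested S phase genes 2 were higher and 2 were lower, shares below those over all tested genes. Among cells called G1 alone, 545 genes were higher and 503 were lower, and 449 and 400 of these were called over all phases too.

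Tubulins, the target of paclitaxel, had 7 of 10 tested genes lower in members and 0 higher (background 8.5% higher and 8.52% lower), with a median of -0.42. Summed over the list, members were at 1207, 1846, 1605 and 1115 CPM in the paclitaxel 24 h, DMSO 24 h, paclitaxel 72 h and DMSO 72 h libraries. The other cells were at 2016, 2076, 2010 and 1115 CPM, so the summed level did not differ in the DMSO 72 h library. TUBB2A was at 7.99, 6.58, 10.5 and 4.54 CPM in members, against 20.1, 17.2, 36.6 and 5.02 CPM in the other cells of the paclitaxel 24 h, DMSO 24 h, paclitaxel 72 h and DMSO 72 h libraries (-1.12 ± 0.20, adjusted p = 0.00117). The gap was smallest in the DMSO 72 h library, and TUBB2A is uncertain because reads may be shared with its near-identical copy TUBB2B. TUBA1B was at 289, 489, 451 and 235 CPM in members, against 697, 729, 499 and 294 CPM in the other cells (-0.61 ± 0.13, adjusted p = 0.00449). TUBA1B missed the threshold among cells called G1 (-0.36, adjusted p = 0.131).

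The stress and signaling lists are read against a background of 8.5% higher and 8.52% lower. Of 13 heat shock genes 6 were lower and 0 were higher (median -0.28), with the chaperone gene HSP90AA1 at -0.56 ± 0.11. Hypoxia and glycolysis genes had 5 of 14 lower and 1 higher (median -0.24), with the vasodilator peptide gene ADM at -1.13 ± 0.18 and the aldolase gene ALDOA at -0.50 ± 0.11. ADM rested on 16, 2, 52 and 40 UMIs in members of the paclitaxel 24 h, DMSO 24 h, paclitaxel 72 h and DMSO 72 h libraries. Immediate early genes had 5 of 14 lower and 1 higher, and the unfolded protein and integrated stress response list had 5 of 17 lower and 0 higher. CYR61, a matrix protein gene that responds quickly to growth factors, was at -0.90 ± 0.17 and missed the threshold with DESeq2's Wald test (adjusted p = 0.0906). Among NF-kB and inflammatory genes 4 of 11 were lower and C3 was the higher one. The chemokine gene CXCL8 was lower in members (-0.89 ± 0.11, adjusted p = 4.54e-05).

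Of 22 tested interferon-stimulated genes 5 were higher in members (background 8.5% higher and 8.52% lower) and 0 were lower, with a median of 0.20. Summed over the list, members were at 2238, 795, 5656 and 1218 CPM in the paclitaxel 24 h, DMSO 24 h, paclitaxel 72 h and DMSO 72 h libraries. The other cells were at 1706, 780, 4897 and 1286 CPM, so members had the lower sum in the DMSO 72 h library. The transcription factor gene STAT2, which carries the type I interferon signal, was at 56.6, 51.0, 71.4 and 46.6 CPM in members, against 33.8, 21.0, 47.7 and 38.7 CPM in the other cells of the paclitaxel 24 h, DMSO 24 h, paclitaxel 72 h and DMSO 72 h libraries (0.58 ± 0.12, adjusted p = 0.00329). OAS1, a sensor of double-stranded RNA (0.69 ± 0.14), and IFI44 (0.82 ± 0.15) rested on 1 and 0 UMIs in the DMSO 24 h members, and OAS1 missed the threshold when the top 10% was taken within each library (adjusted p = 0.0521). IFI6 (0.05 ± 0.14) and ISG15 (-0.13 ± 0.15) were not called. Of 12 tested genes of MHC class I presentation TAPBP, a chaperone of peptide loading, was higher (0.61 ± 0.11) and 0 were lower, a share near the background. Cholesterol synthesis genes had 3 of 15 higher and 0 lower (median 0.21), with HMGCS1 at 0.72 ± 0.10 and LSS at 0.48 ± 0.10. Among cells with an MT- share of 5% to 10% LSS was not called (0.26, adjusted p = 0.164). Of 12 tested p53 target genes PHLDA3 was higher (0.93 ± 0.17) and 0 were lower, again a share near the background. Against the same background extracellular matrix genes had 4 of 16 higher and 3 lower, with the collagen gene COL6A1 at 0.72 ± 0.12 and the protease inhibitor gene TIMP1 at -0.58 ± 0.11. The single tested gene of cilia was not called (0.07).

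The members' MT- share was higher in all 4 libraries, and its part in these calls was not tested apart from a narrower range of cells. With members and other cells of an MT- share between 5% and 10%, an alternative added after seeing the data, 292 genes were called higher and 201 lower. Of these, 285 and 191 were among the calls over all cells. Of the 95 named genes, 19 lost their call in that range, among them KRT14, KRT18 and MKI67. That range held 54, 4, 16 and 123 members in the paclitaxel 24 h, DMSO 24 h, paclitaxel 72 h and DMSO 72 h libraries.

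Paclitaxel and DMSO libraries were set side by side within members as a description. Levels of IFI6 and ISG15 were higher with paclitaxel in members and in the other cells. IFI6 was at 272 CPM in paclitaxel members and 18.1 CPM in DMSO members at 24 h, a log2 ratio of 3.91 (exact 95% interval 3.07 to 4.92), beside 2.36 (2.30 to 2.43) in the other cells. At 72 h it was at 771 CPM in paclitaxel members and 68.5 CPM in DMSO members, a log2 ratio of 3.49 (3.37 to 3.62), beside 3.31 (3.25 to 3.37) in the other cells. CXCL8 at 72 h was at 113 CPM in paclitaxel members and 9.44 CPM in DMSO members, and its log2 ratio was 3.58 in members and 3.58 in the other cells. ISG15 was at 719 CPM in paclitaxel members and 107 CPM in DMSO members at 24 h, and at 2209 CPM in paclitaxel members and 236 CPM in DMSO members at 72 h. For IFI6, ISG15 and CXCL8 the paclitaxel library was higher in both kinds of cell.

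Other genes differed between treatments by unlike amounts in members and other cells, and the difference was not tested. Members passed 1 cutoff for all libraries and are unlike shares of them, 0.925% of DMSO 24 h and 11.98% of paclitaxel 24 h cells. The choice itself can thus shape ratios between members of different libraries, and its part was not tested. TUBB2A at 72 h had a log2 ratio of paclitaxel over DMSO of 1.21 (0.47 to 1.92) in members and 2.87 (2.65 to 3.10) in the other cells. RARRES1 at 24 h had a log2 ratio of 0.94 (0.53 to 1.39) in members and 2.61 (2.49 to 2.74) in the other cells. At 72 h the order was the other way, with 0.61 (0.42 to 0.80) in members and 0.08 (-0.01 to 0.18) in the other cells. C3 at 24 h was at 125 CPM in paclitaxel members and 118 CPM in DMSO members, a log2 ratio of 0.08 (-0.27 to 0.45), beside 1.42 (1.33 to 1.52) in the other cells. At 72 h its log2 ratio was 0.66 (0.48 to 0.83) in members and 0.51 (0.41 to 0.60) in the other cells. KRT81 at 72 h was at 823 CPM in paclitaxel members and 324 CPM in DMSO members, a log2 ratio of 1.34 (1.26 to 1.42), beside 1.52 (1.47 to 1.56) in the other cells. MKI67 was lower with paclitaxel in members, with log2 ratios of -1.11 (-1.48 to -0.73) at 24 h and -1.19 (-1.54 to -0.86) at 72 h. In the other cells MKI67 was lower too, at -0.79 (-0.84 to -0.74) at 24 h and -0.64 (-0.74 to -0.55) at 72 h. The 24 h ratios in members rest on 10 DMSO cells.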

How the data were processed

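The deposited tables hold raw UMI counts per gene symbol and cell barcode, made by the authors with 10x Chromium poly(A) capture per the labels' protocols. The submitters' processing notes name Cell Ranger 2.0 and GRCh38, and the selection of barcodes is not described there. Tables summed to 34997421 to 72057374 UMIs, and 15636 of 18131 genes were listed in all 4. A listed gene has a UMI in at least 1.02% of its table's cells, so a gene missing from a table is not a measured 0. Members and lists were chosen with earlier results of these data known. UMIs were summed over members and over other cells of each library, giving 4 pairs, and fitted with edgeR 4.0.16 (glmQLFit, TMM factors, library block) for genes in all tables with a mean of at least 10 CPM over whole libraries, a filter that does not use membership. SEs were taken from the F statistics. The step was tested on simulated data. Phases and neighbors used scanpy 1.11.5. Intervals are exact and cover counting error only, and a count of 0 allows 3 counts. Named genes were called with the same sign in 4 libraries and a mean of at least 20 CPM (12 highest, 12 lowest, without MT-, RPL and RPS genes), up to 3 called genes per list, and genes fixed by name. MUC4, fixed by name, was not in all tables. CD24, GATA3, ELF3, SAA1, WFDC2, SLC34A2, SOX9, MMP7, CDH1, S100P, CAV1 and LGALS1 were added as list members after their values were seen. Coordinates are from GENCODE 29. Alternatives included DESeq2 1.42.0 and leaving out each library.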

Additional observations from a re-analysis of the deposited data

Results flagged for a closer look

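In 5 genes members differed from other cells in opposite directions in libraries that differ in treatment alone or in time alone, with each interval away from a ratio of 1 but with no test of the difference. The log2 ratio of members over other cells of KRT19, a luminal keratin gene, was -0.21 with paclitaxel at 72 h and 0.23 with paclitaxel at 24 h. EPCAM, an epithelial adhesion gene, was at -0.22 with paclitaxel and 0.20 with DMSO at 72 h. TOP2A was at -0.57 with paclitaxel and 0.32 with DMSO at 24 h. The G2/M share there was 25.6% of members and 47.4% of other cells with paclitaxel. With DMSO it was 40.0% of members and 60.1% of other cells, so members had the lower share in both libraries. IFI6 was at 0.52 with paclitaxel and -1.03 with DMSO at 24 h. ISG15 was at 0.35 with paclitaxel and -0.84 with DMSO at 24 h, and at 0.22 with paclitaxel and -0.42 with DMSO at 72 h. The DMSO 24 h members held 137, 11 and 65 UMIs of TOP2A, IFI6 and ISG15.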

How the results depend on the processing

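The counts of 698 higher and 699 lower genes moved by over 1.5 times under some settings; causes were not tested beyond what a setting itself removes. With a mean of at least 50 CPM, which leaves 2588 tested genes, 329 were higher and 250 lower. With no library block 0 were called in each direction. With the top 5% as members 387 were lower. With MT- shares of 5% to 10%, which leaves fewer cells, 292 were higher and 201 lower. Leaving out a library gave 313 to 672 higher and 271 to 651 lower genes. The share of members moved out of its interval in DMSO 24 h with ranking after thinning (2.50%). In DMSO 72 h it did so with ranking after thinning (18.2%) and with MUC16 left out of the sum (19.4%). Shares after thinning can depend on the library order in which tied cells were taken. With MUC16 left out, 68, 6, 25 and 114 members stayed (paclitaxel 24 h, DMSO 24 h, paclitaxel 72 h, DMSO 72 h). Among cells called G1 the log2 fold changes of DSCC1, MKI67 and TOP2A turned positive (0.060, adjusted p = 0.838; 0.26, adjusted p = 0.287; 0.46, adjusted p = 0.0343). Over the 95 named genes and all alternatives, 1487 values kept direction and call, 181 lost the call (86 with no library block), 3 gained it and 3 turned. With no filter on low counts, 855 were higher and 967 lower. No paired analysis was possible because each group has 1 library, so groups share fewer than 2 replicate numbers; that concerns treatments and times, while members and other cells were paired within each library throughout. Depth limits the DMSO 24 h members most: a count of 0 there allows 4.94 CPM, against 0.267 CPM in the DMSO 72 h members.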

Other observations

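Gene families listed after their values were seen, and so without a test of the family, showed a few further differences; over all tested genes 8.5% were higher and 8.52% lower. All 4 tested kallikrein-related peptidase genes were higher in members (log2 fold changes of 0.90 to 1.08), and KLK8 joined KLK5, KLK6 and KLK10 at 0.90. Of 11 tested S100 genes, which encode small calcium-binding proteins, 4 were higher and 0 were lower, with S100A1 at 1.06 and S100A14 at 1.02. S100A14 was at 866, 1231, 1501 and 1189 CPM in members of the paclitaxel 24 h, DMSO 24 h, paclitaxel 72 h and DMSO 72 h libraries, against 534, 423, 702 and 642 CPM in the other cells. The protease inhibitor gene SERPINB5, also called maspin, was at 0.77, and SERPINE2 was at -0.83. Of 87 tested ribosomal protein genes 0 were higher and 2 were lower. Of 13 mitochondrially encoded genes 4 were higher and 0 were lower, with a median of 0.30.

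Some transcription factor genes lay under the minimum for the test and are given as values chosen after they were seen. ELF5, which drives alveolar differentiation in the mammary gland, was at 2.21, 3.29, 4.05 and 5.61 CPM in members, against 0.915, 0.450, 1.60 and 2.22 CPM in the other cells of the paclitaxel 24 h, DMSO 24 h, paclitaxel 72 h and DMSO 72 h libraries. The DMSO 24 h value rests on 2 UMIs, and the exact interval lay above a ratio of 1 in the other libraries. SNAI2, a mesenchymal transcription factor gene, was at 0.510, 0, 0 and 0.712 CPM in members, against 3.13, 1.14, 5.53 and 1.82 CPM in the other cells of these libraries. A count of 0 allows 4.94 CPM in the DMSO 24 h members, so a difference was not detectable there, and 1.22 CPM in the paclitaxel 72 h members. Other transcription factor genes under the minimum showed less. The interval of FOXA1 lay above a ratio of 1 in the paclitaxel 72 h library only (10.5 against 4.74 CPM). That of SPDEF did so in the DMSO 24 h library only, on 2 UMIs in members. For ESR1 and ZEB1 the interval included a ratio of 1 in every library.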
